A study of Rattus norvegicus with 6 samples.

Results

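The genes described here are 9 neurotrophic and axon guidance genes, *Bdnf*, *Gdnf*, *Ngfr*, *Sema3a*, *Sema3c*, *Sema3f*, *Slit2*, *Ntn4* and *Efna1*, among the 61453 loci measured by RNA sequencing in rat corneal epithelium. They were chosen by name, and where several loci carried a name, the protein coding locus with the highest mean FPKM (fragments per kilobase of locus, relative to the library total) was used. The design holds 3 libraries of normal rats and 3 libraries of diabetic rats. The animals were male Brown Norway rats of 150 to 200 g. Diabetic rats had received 1 intraperitoneal dose of streptozotocin (50 mg/kg), a toxin of the insulin-producing cells, and normal rats had received citrate buffer, and both groups were sampled at 16 weeks. The epithelium was scraped with a razor blade from the excised cornea. The sources used here give neither the ages of the animals nor how corneas were combined into a library. Where 3 values of a group follow each other below, they are replicates 1, 2 and 3.

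The corneal epithelium is among the most densely innervated surfaces of the body, and its sensory axons run between the epithelial cells. Neurotrophic factors are secreted proteins that keep such neurons alive and branching, and they act through receptors on the axon. Guidance cues (semaphorins, Slits, netrins and ephrins) attract or repel growing axons through plexins and neuropilins, Robo, Dcc and Unc5, and Eph receptors, and many of them also act on epithelial and vascular cells. Sensory loss is a known feature of diabetic keratopathy.

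Promoter sequences are shown for the 4 genes with a single start in the RefSeq table (build GRCr8, which differs from the rn6 build of the expression data), because they set the genes of the highest levels, *Sema3c* and *Efna1*, beside *Ntn4* of middle and *Gdnf* of low level. Each is the 250 bases before the start, read 5′ to 3′ on the strand of the gene, in lower case with motif matches in capitals. The windows are chr2:58621077-58621326 (plus strand) for *Gdnf*, chr4:18699628-18699877 (minus strand) for *Sema3c*, chr7:30073387-30073636 (plus strand) for *Ntn4* and chr2:176986822-176987071 (minus strand) for *Efna1*.
Gdnf: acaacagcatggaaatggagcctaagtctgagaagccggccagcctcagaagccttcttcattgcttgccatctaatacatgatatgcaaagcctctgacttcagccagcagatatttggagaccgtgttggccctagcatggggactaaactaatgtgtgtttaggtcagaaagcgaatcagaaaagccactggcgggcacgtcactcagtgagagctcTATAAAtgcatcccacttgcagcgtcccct
Sema3c: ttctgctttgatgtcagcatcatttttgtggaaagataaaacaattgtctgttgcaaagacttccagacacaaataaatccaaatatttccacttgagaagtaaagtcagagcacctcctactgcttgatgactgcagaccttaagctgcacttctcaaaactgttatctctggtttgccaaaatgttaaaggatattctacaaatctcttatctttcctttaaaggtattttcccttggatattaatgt
Ntn4: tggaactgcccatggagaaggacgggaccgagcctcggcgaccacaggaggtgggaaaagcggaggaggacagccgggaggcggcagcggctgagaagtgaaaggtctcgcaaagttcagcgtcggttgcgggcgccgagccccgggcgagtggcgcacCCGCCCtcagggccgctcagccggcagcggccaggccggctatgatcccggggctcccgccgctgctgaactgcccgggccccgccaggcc
Efna1: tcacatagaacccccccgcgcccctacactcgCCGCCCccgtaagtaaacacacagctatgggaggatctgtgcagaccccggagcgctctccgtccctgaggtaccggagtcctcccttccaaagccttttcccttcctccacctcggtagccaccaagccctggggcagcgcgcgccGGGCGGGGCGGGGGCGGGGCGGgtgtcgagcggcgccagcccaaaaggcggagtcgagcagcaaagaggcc

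The motifs searched on both strands were the TATA box (TATAAA), the GC box (GGGCGG), the CCAAT box (CCAAT) and the cyclic AMP response element (TGACGTCA), which 12.9%, 30.5%, 34% and 1.59% of all 33469 promoter windows of this length hold. The *Gdnf* window had 1 TATA box, whose first base lies 30 bases before the start. The *Sema3c* window had none of the 4 motifs and no CpG, and its GC content was 35.2% against a median of 51.2% over all windows. The *Ntn4* window had 27 CpG, a GC content of 72.4% and 1 GC box, and the *Efna1* window had 23 CpG, a GC content of 68.4% and 5 GC boxes, of which 4 form a run with overlapping matches. A match is only a match of letters. *Bdnf* had 6 starts in the table and is not shown.

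The libraries held 62288901 to 87040253 counts, so that 3 counts, the limit that a count of 0 leaves, are 0.0345 to 0.0482 CPM (counting error only). Diabetic replicates 2 and 3 were the shallowest, with 62288901 and 64263130 counts. The summed FPKM of 8 corneal epithelial markers was 15439 to 15788 in normal and 15299 to 17098 in diabetic libraries. *Aldh3a1* and *Krt12* (mean FPKM 9467 and 4034) made up most of that sum, so it says little of the others. Of the 8 markers 1, *Upk1b*, was higher without overlap, as were 3.94% of all loci tested, and 0 were lower without overlap. RNA of neighbouring tissue was present as well. The summed FPKM of 7 lens genes was 46.6 to 201 in normal libraries and 63.5, 623 and 2.04 in diabetic replicates 1, 2 and 3, so that diabetic replicates 2 and 3 lay at the extremes, and values without each of them are given below where they turn a direction. Of 11 sensory neuron markers *Calca* and *Isl1* had 0 counts in every library and only *Tubb3*, a neuronal tubulin, reached a mean FPKM of 0.5. The axons in the epithelium have their cell bodies in the trigeminal ganglion, which was not sampled.

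The first comparison was of level among the 9 genes, on the FPKM scale, which is scaled per length. *Sema3c* had the highest level, with a mean FPKM of 42.7 ± 12.6 (SD, n = 6 libraries), and *Efna1* followed with 14.2 ± 2.31. *Sema3f* (8.30 ± 0.838), *Ntn4* (7.54 ± 1.37), *Ngfr* (6.93 ± 1.08) and *Slit2* (4.54 ± 0.820) came next, and each of these overlapped with its neighbour in range. *Sema3a* (1.85 ± 0.552), *Gdnf* (0.466 ± 0.277) and *Bdnf* (0.00313 ± 0.00767) were lower, and neighbours from *Slit2* downward did not overlap. The order was therefore set between *Sema3c*, *Efna1*, the 4 genes of middle level, *Sema3a*, *Gdnf* and *Bdnf*, and not within the middle 4. The listed genes of the same families spanned the same range, from *Plxnb2* at 62.1 FPKM to *Dcc*, *Robo3*, *Robo4* and *Epha8* with 0 counts.

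**Figure D1:**
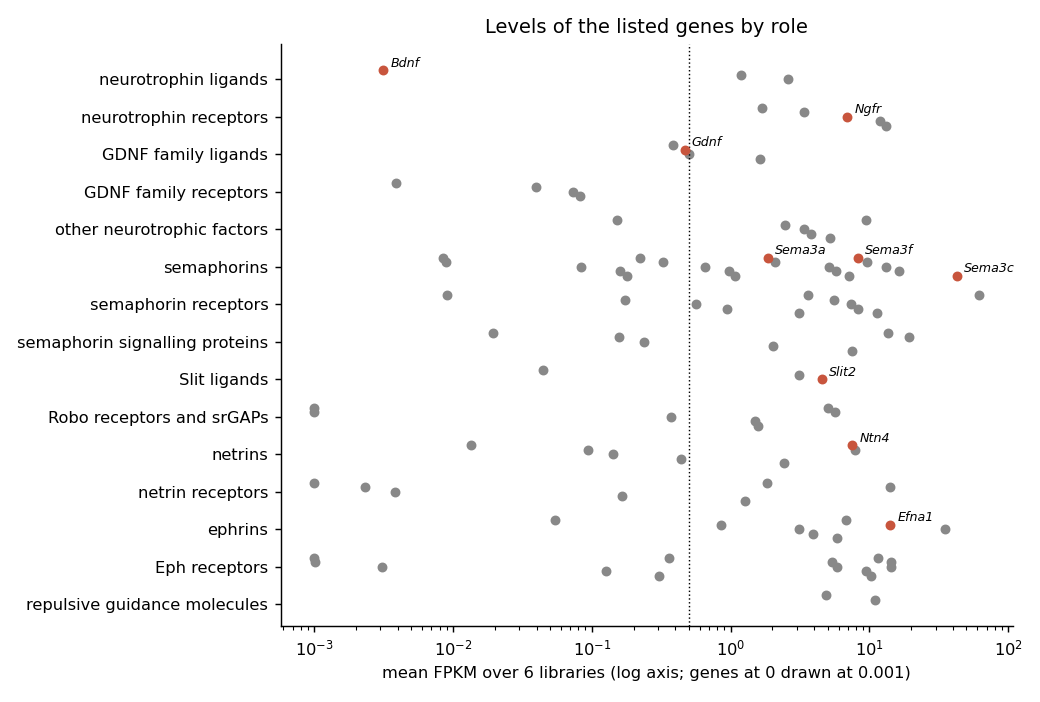
Mean FPKM over 6 libraries (log axis) of every listed neurotrophic and guidance gene found, one row per family, with the 9 genes in red and the others in grey; the dotted line marks 0.5 FPKM, and genes at 0 are drawn at 0.001. Sema3c lies near the top of all families at 42.7, and Bdnf lies near the left edge at 0.00313.

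Diabetic libraries were then compared with normal ones. None of the 7 genes that reached a mean FPKM of 0.5 passed limma on quantile-normalized log2(FPKM + 1) at a Benjamini-Hochberg adjusted p under 0.05 with a fold over 1.2, a rule that 0.0259% of the 42551 loci tested met. *Ngfr* and *Ntn4* were the 2 of these 7 whose diabetic and normal FPKM did not overlap, both lower in the diabetic libraries, as were 5.72% of all loci tested. Both lay near an unadjusted limma p of 0.05 (0.0511 and 0.0487), and *Sema3a*, *Sema3c*, *Sema3f*, *Slit2* and *Efna1* had p between 0.172 and 0.780. The edgeR and DESeq2 tests of the counts also passed none of the 7, beside 0.0141% and 0.233% of all loci. Log2 differences are diabetic minus normal after a pseudocount of 1, so those of low genes come out too small.

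**Figure D2:**
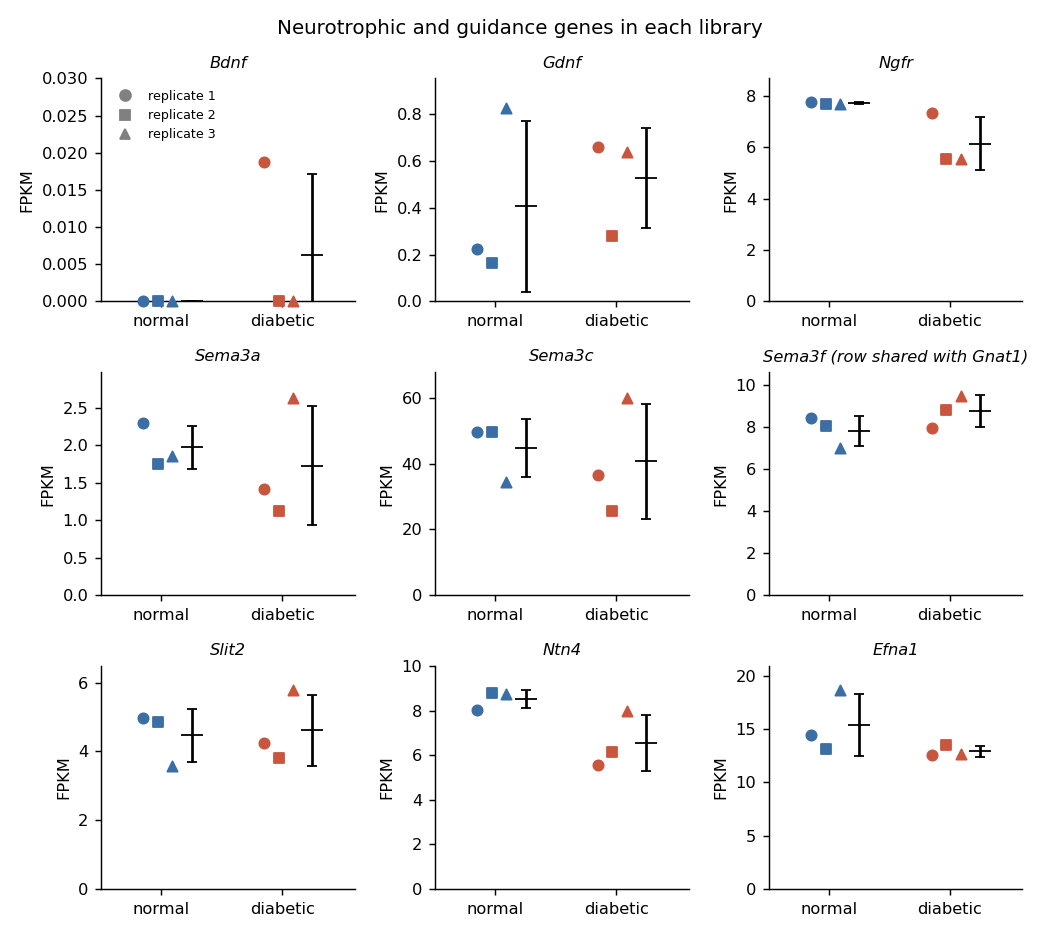
FPKM of the 9 genes in each library (blue normal, red diabetic; circles, squares and triangles are replicates 1, 2 and 3), with the group mean and SD as a bar beside the points and a separate scale starting at 0 in each panel. Only Ngfr and Ntn4 have all 3 diabetic points below all 3 normal points.

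*Bdnf*, the neurotrophin that acts through *Ntrk2*, was close to undetected. It had 0 counts in all 3 normal libraries and in diabetic replicates 2 and 3, and 12 counts (0.0188 FPKM) in diabetic replicate 1. The counts stood in a single library, so no change can be read from them. Its locus is at chr3:100768637-100819210 (plus strand, rn6).

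*Gdnf*, the ligand of the Ret receptor complex, was at a low level with large scatter. Its FPKM was 0.225, 0.165 and 0.829 in normal and 0.659, 0.279 and 0.640 in diabetic libraries, from 11 to 55 counts a library. The groups overlapped, and the highest and lowest values were both normal. Its mean of 0.466 lies under the filter of 0.5. Fitted without the filter, the log2 difference was 0.17 with an SE of 0.21 (adjusted p 0.943). A locus of the same name, 789 bases beyond the end of the gene (chr2:56911028-56912964, no strand), had 87 to 331 counts and a log2 difference of −0.14, the opposite sign. The 3 other loci of that name, short and without strand inside the gene, had 0 to 65 counts and log2 differences of 0.16, 0.56 and 0.040. The groups overlapped at all 4 loci, and none passed.

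The neurotrophin ligands *Ntf3* and *Ntf4* were higher than *Bdnf*, with mean FPKM of up to 2.57. Their log2 differences were −0.17 and −0.12, and neither passed. *Ntrk2*, the receptor of Bdnf, was at 2.92 to 3.99 FPKM in every library. *Ret* and the Gfra genes found, which form the Gdnf receptors, lay under the filter with at most 96 counts.

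*Ngfr*, the low-affinity neurotrophin receptor p75, is found on sensory axons and Schwann cells and on basal epithelial progenitors. Its FPKM was 7.75, 7.70 and 7.69 in normal and 7.34, 5.53 and 5.56 in diabetic libraries, at chr10:83389847-83408061 (minus strand). The 3 normal libraries lay close together, 1 diabetic library lay just under them and 2 lay well below. The log2 difference was −0.29 with an SE of 0.12 (limma, unadjusted p 0.0511, adjusted p 0.953), and the 95% interval was −0.57 to 0.0018. An exact two-sided permutation test of FPKM gave p = 0.10, the smallest that 3 against 3 libraries allow. In bulk RNA, fewer cells that make a transcript and less transcript per cell cannot be told apart.

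Other measures also differed between the diabetic libraries. The 7 immediate early and stress genes found had mean log2 deviations from their own average of −1.21 and −0.54 in diabetic replicates 2 and 3, the libraries of lower *Ngfr*, and 1.00 in diabetic replicate 1. Diabetic replicates 2 and 3 were also the shallowest libraries. The Schwann cell list stayed between −0.09 and 0.06 in all libraries. *Tubb3*, the only sensory neuron marker tested, was lower without overlap in the diabetic libraries, as were 5.72% of all loci tested. Its mean FPKM was 0.301 against 1.29 (log2 difference −0.73, limma, unadjusted p 0.0557). Of the sensory neuron markers under the filter, *Nefh* was at 0.168 FPKM in both groups. *Trpv1* had a higher mean FPKM in the diabetic libraries (0.199 against 0.149, from 34 to 80 counts). *Nefm* had a lower one (0.0318 against 0.0622, from 0 to 32 counts), and the groups overlapped for both. The rest had 0 counts in most libraries. The part of these markers in the *Ngfr* values was not tested, and the immediate early list was picked from 11 marker lists after its values were seen. In the normal libraries the deviations of that list were 0.16, −0.15 and 0.73, and those of *Ngfr* were 0.15, 0.15 and 0.13. The log2 difference of *Ngfr* was −0.40 without diabetic replicate 1 (unadjusted p 0.00695, adjusted p 0.438), and it was −0.24 and −0.22 without diabetic replicates 2 and 3 (unadjusted p 0.141 and 0.138). Without a normal library the unadjusted p was 0.0893 to 0.112.

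Of the other receptors, *Ntrk3*, which binds Ntf3, was at a mean FPKM of 1.87 in normal and 1.48 in diabetic libraries, with a log2 difference of −0.20 (unadjusted p 0.309), and *Ntrk2* had −0.029. *Sort1* and *Sorcs2*, which bind pro-neurotrophins beside p75, had 0.072 and 0.14. None passed. *Ngfr* alone of the 5 tested neurotrophin receptors did not overlap between groups, and 5.72% of all loci tested were lower without overlap.

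Among the semaphorins, *Sema3c* was the most abundant of the 20 listed. Its FPKM was 49.8, 49.8 and 34.6 in normal and 36.6, 25.7 and 60.0 in diabetic libraries (chr4:14318274-14490446, minus strand). The diabetic libraries held both the lowest and the highest value. The log2 difference was −0.14 with an SE of 0.32 (adjusted p 0.979), and the interval ran from 0.541 to 1.51 as a fold. It turned to 0.15 without diabetic replicate 2 and was −0.52 without diabetic replicate 3 (unadjusted p 0.0425, adjusted p 0.997). The 3 corneal endothelium markers, of the cell layer behind the stroma, had log2 deviations of −0.40 and 0.35 in those libraries and of 0.16, 0.34 and −0.41 in the normal ones, where *Sema3c* had 0.21, 0.25 and −0.25. Their part in the *Sema3c* values was not tested, and the list was picked after its values were seen.

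*Sema3a*, the classic repellent of sensory axons, lies 3.69 megabases from *Sema3c* on chromosome 4 (chr4:18178650-18655847, minus strand). Its FPKM was 2.30, 1.75 and 1.86 in normal and 1.42, 1.13 and 2.63 in diabetic libraries. Diabetic replicate 3 was again the highest and diabetic replicate 2 the lowest. The log2 difference was −0.14 with an SE of 0.21 (adjusted p 0.972), and it was 0.0090 without diabetic replicate 2.

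*Sema3f*, a repellent that acts through *Nrp2*, shared its locus with *Gnat1*, the rod transducin gene, under a joined name (chr8:116433302-116469915, minus strand), so its values are uncertain. The FPKM of that locus was 8.43, 8.05 and 7.02 in normal and 7.99, 8.84 and 9.49 in diabetic libraries. The groups overlapped, and the log2 difference was 0.16 with an SE of 0.12 (adjusted p 0.953). It was 0.091 without normal replicate 3, the lowest library.

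Of the semaphorin receptors, *Nrp2* was lower without overlap in the diabetic libraries, as were 5.72% of all loci tested. Its FPKM was 4.68, 4.48 and 4.06 in normal and 3.58, 1.81 and 2.97 in diabetic libraries. Its log2 difference was −0.53 with an SE of 0.19 (unadjusted p 0.0233, adjusted p 0.953), and it was −0.34 without diabetic replicate 2 (unadjusted p 0.0589). *Nrp1*, the receptor component for Sema3a, had −0.14. *Plxnb2*, a receptor of class 4 semaphorins, and *Farp2*, which couples plexins to small GTPases, were higher without overlap (log2 differences 0.13 and 0.16), as 3.94% of all loci tested were. *Nrp1* and *Plxnb2* lie on loci whose names are joined with a microRNA, so their values are uncertain. None of these passed.

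*Slit2*, the repellent ligand of Robo receptors that also acts on vessels, had FPKM of 4.96, 4.85 and 3.59 in normal and 4.24, 3.82 and 5.79 in diabetic libraries (chr14:66831848-67171479, minus strand). The groups overlapped widely, with a log2 difference of 0.049 and an SE of 0.17 (adjusted p 0.989). It turned to −0.087 without diabetic replicate 3 and to −0.079 without normal replicate 3. Its log2 deviations had the same sign as those of *Sema3c* and of the corneal endothelium markers in all 6 libraries, a description with no test. *Slit3* and *Robo1* had log2 differences of 0.22 and 0.040, and neither passed.

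*Ntn4*, a netrin of basement membranes, had FPKM of 8.05, 8.78 and 8.74 in normal and 5.54, 6.15 and 7.97 in diabetic libraries (chr7:34533543-34649481, plus strand). Diabetic replicate 3 lay just under the lowest normal library, and on the quantile-normalized log2 scale it lay just above it (deviations 0.096 and 0.091), so that the groups overlapped on that scale. The log2 difference was −0.32 with an SE of 0.14 (limma, unadjusted p 0.0487, adjusted p 0.953), the fold interval was 0.640 to 0.998, and the exact two-sided permutation test again gave p = 0.10. edgeR gave an unadjusted p of 0.0570. The difference was −0.46 without diabetic replicate 3 (unadjusted p 0.00653, adjusted p 0.997), and it was −0.22 and −0.30 without diabetic replicates 1 and 2 (unadjusted p 0.140 and 0.115). Without a normal library the unadjusted p was 0.0711 to 0.120.

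The keratocyte list holds markers of the stroma under the epithelium. All 8 found had negative log2 differences, as had 51% of all loci tested, and 1 of the 8 had an unadjusted limma p under 0.05. *Lum* was lower without overlap (log2 difference −0.48), as were 5.72% of all loci tested. The summed FPKM of the list was 823 to 1038 in normal and 721 to 814 in diabetic libraries. The mean log2 deviation was −0.48, −0.15 and 0.21 in diabetic replicates 1, 2 and 3, where *Ntn4* had −0.37, −0.21 and 0.096, and 0.26, −0.063 and 0.22 in the normal ones, where *Ntn4* had 0.091, 0.20 and 0.19. *Ogn*, a small proteoglycan on that list, was at 8.11, 0 and 9.72 FPKM in normal and 0, 5.60 and 7.50 in diabetic libraries. Without it the list had 0.14, 0.22 and 0.056 in normal and −0.25, −0.27 and 0.098 in diabetic libraries, an alternative added after the data were seen. Its part in the *Ntn4* values was not tested, and the list was picked after its values were seen. *Ntn1*, the founding netrin, was also lower without overlap, at a mean FPKM of 6.96 against 8.92 (log2 difference −0.30, SE 0.10, unadjusted p 0.0218, adjusted p 0.953), whereas *Ntng2*, a membrane-anchored netrin and the only other one tested, had 0.27 (unadjusted p 0.306) and the netrin receptor *Neo1* had 0.013. *Dcc*, the attractive netrin receptor, had 0 counts.

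*Efna1*, a membrane-bound ligand of EphA receptors, had FPKM of 14.5, 13.1 and 18.7 in normal and 12.5, 13.5 and 12.7 in diabetic libraries (chr2:188588796-188596222, minus strand). The groups overlapped at the lower end, and normal replicate 3 stood above the rest. The log2 difference was −0.21 with an SE of 0.14 (adjusted p 0.953), and it was −0.066 without normal replicate 3. Of the 7 Eph receptors tested 6 had positive log2 differences and 1 a negative one, beside 51% negative over all loci tested. The median over the 7 was 0.21, and none of the 6 had an unadjusted limma p under 0.05. *Epha1* was the exception and was lower without overlap (12.7 against 16.1 FPKM, log2 difference −0.31, limma, unadjusted p 0.0341), as were 5.72% of all loci tested. The EphA receptors *Epha2* and *Epha4* had 0.22 and 0.23 (unadjusted p 0.258 and 0.10), and *Ephb3* had 0.18. *Ephb4*, a receptor of Efnb2, had 0.48 (SE 0.24, unadjusted p 0.0830), which was 0.24 without normal replicate 1 (unadjusted p 0.270), the lowest library. *Efnb1* and *Efna3* had −0.22 and −0.17. None passed.

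**Figure D3:**
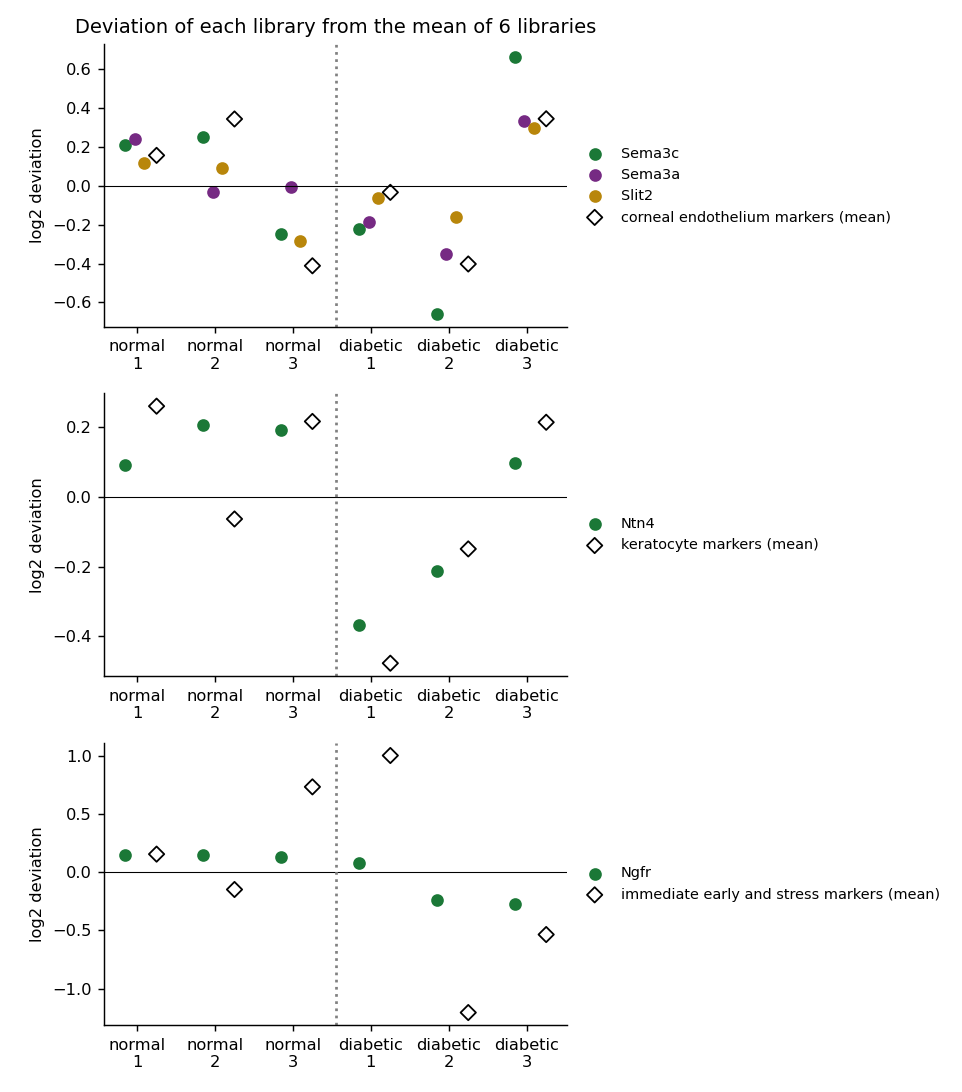
Mean-centred log2(FPKM + 1) in each of the 6 libraries for Sema3c, Sema3a and Slit2 beside the corneal endothelium markers, Ntn4 beside the keratocyte markers and Ngfr beside the immediate early and stress genes (diamonds, list means). Sema3c and Slit2 have the sign of the endothelium markers in all 6 libraries, Ntn4 in diabetic replicate 3 (0.096) lies at the level of normal replicate 1 (0.091), and Ngfr is lowest in diabetic replicates 2 and 3. The keratocyte means include Ogn.

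In all, 109 neurotrophic and guidance genes were listed, 107 were found (*Gfra1* and *Epha6* are not analysed here) and 68 reached the filter, of which 0 passed limma, edgeR or DESeq2. At an unadjusted p under 0.05 there were 0 higher and 4 lower (*Ntn4*, *Ntn1*, *Nrp2* and *Epha1*, or 5.88%), beside 2.44% higher and 2.35% lower over all loci tested. Without overlap there were 2 higher and 7 lower, the latter being *Ngfr*, *Sema4g*, *Nrp2*, *Ntn1*, *Ntn4*, *Efna3* and *Epha1* (10.3%, against 5.72% of all loci). *Sema4g* falls outside the rule for named genes and was chosen after its values were seen. *Ngfr* and *Ntn4* belong to the main set, from *Bdnf* to *Efna1*, which was chosen with earlier results of these data known, as were the lists. With the main set left out, 61 genes were tested. At an unadjusted limma p under 0.05, 0 of them were higher and 3 lower (4.92%). Without overlap, 2 of them were higher and 5 lower (8.2%). Over all 68 genes the differences were positive in 35 and negative in 33, with a median of 0.012, beside a median of −0.0049 and 51% negative over all loci. Ligands had a median of −0.050 over 36 genes and receptors and signalling proteins a median of 0.036 over 32.

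**Figure D4:**
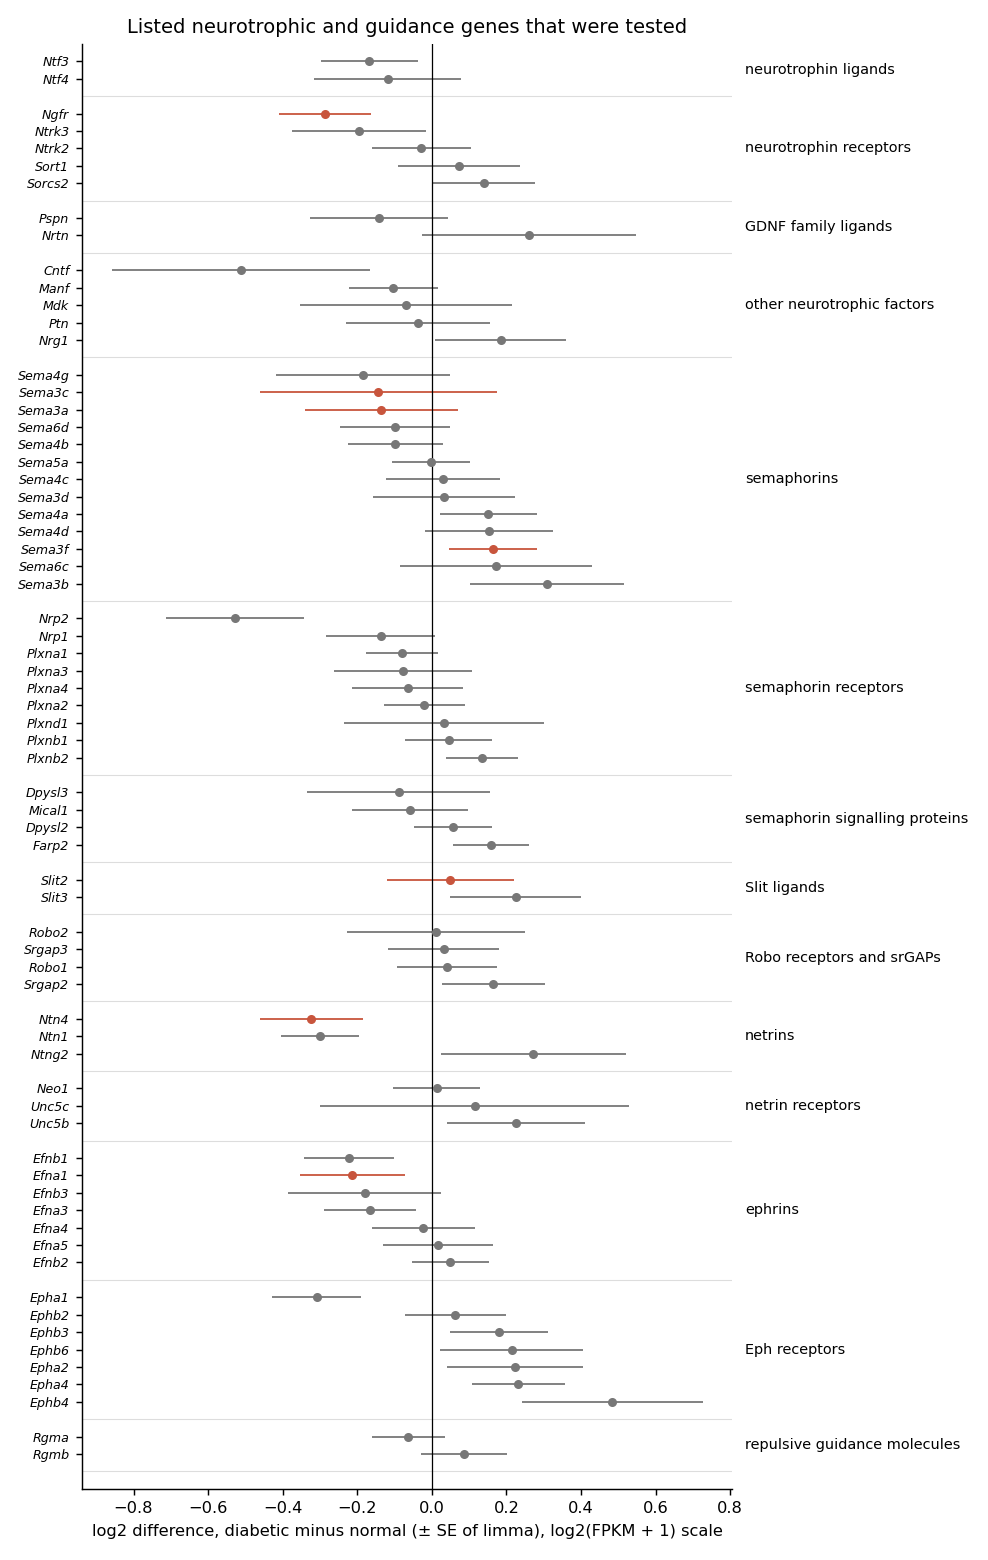
log2 difference (diabetic minus normal, with SE) of the tested genes of each family by limma, members in red. The 68 values lie between −0.53 and 0.48 around a median of 0.012, and no gene passed.

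For each tested gene, the listed gene most like it in its pattern over the 6 libraries was found by the mean absolute difference of log2 values centred on their own mean, among 67 genes. These were *Efnb1* for *Ngfr* (0.0873), *Nrp1* for *Sema3a* (0.122), *Mdk* for *Sema3c* (0.169), *Unc5b* for *Sema3f* (0.0525), *Plxnd1* for *Slit2* (0.0791), *Ntf3* for *Ntn4* (0.115) and *Ntrk2* for *Efna1* (0.0933). A flat profile would lie at 0.170, 0.191, 0.375, 0.108, 0.168, 0.194 and 0.137 from *Ngfr*, *Sema3a*, *Sema3c*, *Sema3f*, *Slit2*, *Ntn4* and *Efna1*. The most alike gene was therefore only partly closer than no pattern at all. These are descriptions over 6 libraries with no test.

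Fragments that carried the gene names were tested as well, except a *Sema3f* fragment under the filter (mean FPKM 0.455, from 0 to 34 counts). A locus on the plus strand inside *Sema3c* (chr4:14457793-14462001) was lower without overlap, as were 5.72% of all loci tested. Its FPKM was 3.09, 3.46 and 3.22 in normal and 2.22, 1.97 and 3.06 in diabetic libraries (log2 difference −0.31, SE 0.14, limma adjusted p 0.953). No source used here gives the strandedness of the libraries, so reads of the gene and of fragments on its other strand cannot be told apart. The other 2 plus-strand fragments of *Sema3c* and the 2 of *Slit2* overlapped between groups and did not pass.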

How the data were processed

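RNA of 3 normal and 3 diabetic libraries was analysed. The authors used cutadapt, FastQC and Bowtie2 (versions, assembler and counter not given in the sources used here) with build rn6, and deposited raw counts and FPKM for 61453 loci. A zero count carried a small FPKM placeholder (86380 values), set to 0 here. Following the study's use of limma, the log2 of FPKM plus a pseudocount of 1 was quantile-normalized for 42551 loci of mean FPKM at least 0.5 and tested with limma 3.58.1 (eBayes, trend) in R 4.3.3. The deposited counts of these loci were tested with edgeR 4.0.16 (quasi-likelihood) and DESeq2 1.42.0. Passing meant a fold over 1.2 with a p under 0.05 after Benjamini-Hochberg adjustment. Groups follow the labels, which number the rats but do not say how many gave a library, so p-values measure the spread between these libraries. Replicates differed by more than sampling noise. Scripts were tested on simulated data. Genes named were drawn from the 9 genes, per family up to 4 of smallest p and 3 of highest FPKM, the most alike gene, and markers; others that this rule allows stand only in family counts and the plot of listed genes. Some genes of these families are not reported here. Members and lists were chosen with earlier results of these data known. Alternatives were other scalings, pseudocounts, filters, tests and loci, a replicate block, and leaving out each library. Software also included data.table (version 1.17.8), Python 3.11.15 and matplotlib 3.10.9.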

Additional observations from a re-analysis of the deposited data

How the results depend on the processing

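None of the 7 genes above the filter passed in any of 16 alternatives, *Bdnf* and *Gdnf* did not pass in the 2 and 7 that could be run for them, and no listed gene that was tested passed in 14. The number of loci passing was 11 and became 6 with a pseudocount of 0.1, 3 without a filter, 6 with edgeR, 6 with edgeR and its own filter, and 99 with DESeq2. With the replicate number as a block it was 1. Same-numbered libraries had deviation correlations of −0.0092, 0.025 and 0.032, inside the range of −0.072 to 0.053 of differently numbered ones. With 3 libraries a group, these values cannot settle whether the numbers pair the samples. Leaving out 1 library gave 5 to 12 loci, namely 7 without diabetic replicate 1 and 5 when diabetic replicate 2 or 3 was left out. The *Gdnf* difference, 0.17 without a filter, became −0.073 with its loci summed and −0.14 in the locus of highest FPKM, which takes a different locus. *Neo1* became −0.0017 with median scaling. Leaving out 1 library moved *Sema3a* over −0.34 to 0.0090, *Sema3c* over −0.52 to 0.15, *Slit2* over −0.087 to 0.14, *Sort1* over −0.052 to 0.23, *Neo1* over −0.078 to 0.068, *Robo1* over −0.079 to 0.12 and *Ntrk2* over −0.11 to 0.052. *Ngfr* stayed within −0.40 to −0.22, *Ntn4* within −0.46 to −0.22 and *Efna1* within −0.31 to −0.066, *Sema3f* within 0.091 to 0.23, *Nrp2* within −0.68 to −0.34 and *Ephb4* within 0.24 to 0.66. The edgeR test of all loci with any count was added after the data were seen and passed neither *Bdnf* (unadjusted p 0.126) nor *Gdnf* (unadjusted p 0.646). The cause of these changes was not tested. Low counts limit *Bdnf* and *Gdnf*.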

Other observations

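Counts of 3 listed genes that are not among the 9 were uneven between libraries of a group, and these genes were chosen after their values were seen. *Slit1*, a Slit ligand of the nervous system, had 96 counts in diabetic replicate 3, 2 in normal replicate 1 and 0 in the other libraries. *Unc5a*, a repulsive netrin receptor, had 9, 18 and 0 counts in normal and 15, 89 and 71 in diabetic libraries. *Cntf*, a survival factor of motor neurons on a locus joined with *Zfp91*, had 9793, 4113 and 5537 counts in normal and 5638, 4075 and 1784 in diabetic libraries. *Slit1* and *Unc5a* lay under the filter and were not tested, and *Cntf* did not pass.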
